A study of Mus musculus with 9 samples.

Results

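Replication-dependent histone genes code for the linker histone H1 and the core histones H2A, H2B, H3 and H4, around which new DNA is wrapped during S phase. They were taken as every gene whose GENCODE M21 symbol begins with Hist1h, Hist2h, Hist3h or Hist4h, which gave 70 of the 56289 genes in the deposited table. Of these, 67 are annotated as protein-coding and 3 as pseudogenes (Hist1h2aj, Hist1h2al and Hist3h2bb-ps). By type there are 6 H1, 20 H2A, 19 H2B, 12 H3 and 13 H4 genes, and by place 56 lie in the HIST1 cluster on chromosome 13, 10 in HIST2 on chromosome 3, 3 in HIST3 on chromosome 11 and 1 in HIST4 on chromosome 6.

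Messages of these genes classically end just after a short stem-loop, which binds the protein SLBP, and carry no poly(A) tail, so selection on poly(T) beads leaves most of them behind. Some histone genes also give messages that run past the stem-loop to an ordinary poly(A) signal, as is known for cells that have left the cell cycle. Replication-independent histones such as H3f3a, H3f3b and H1f0 are made outside S phase as well, and their messages have poly(A) tails.

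The libraries were paired-end and made from poly(A)-selected RNA of mouse cells labelled as the macrophage-like line RAW264.7, strain BALB/c. There were 3 groups of 3 replicate libraries: untreated cells (Con), cells given recombinant human TNF-α (TNF), and cells given TNF-α with Wang Bi tablet, a multi-herb medicine abbreviated WBT (TNF_P). Treatment lasted 24 h, and the methods of the study describe the control as given PBS. The labels of the third group write WBP for the agent where the series design writes WBT. The study calls the replicates biological, but the labels do not say that they are separate cultures, so the p-values below measure only the spread between these libraries.

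The cell label was checked against marker genes. Of 15 macrophage markers, 1 was above 1 FPKM (fragments counted per kilobase and scaled by library size) in all 9 libraries, Cd14 with a mean of 5.25 FPKM. The markers at 0 throughout were Adgre1, Ctss, Cybb, Itgam, Ptprc, Spi1 and Tyrobp, while Csf1r reached at most 0.0725 FPKM. Low levels were listed in all 9 libraries for Cd68 (0.939 to 1.61 FPKM), Lyz2 (0.306 to 0.882 FPKM) and Fcer1g (0.130 to 0.489 FPKM). Most of the macrophage markers, Ptprc, Spi1 and Adgre1 among them, were thus at or near 0, and the summed level of the 15 was 7.50, 6.14 and 6.67 FPKM in Con, 7.11, 8.14 and 7.80 in TNF and 7.78, 8.80 and 7.24 in TNF_P. Of 12 fibroblast markers 9 were above 1 FPKM in every library, led by Sparc with a mean of 1065 FPKM, and Lum was at 0. Their sums were 3623, 3840 and 3581 FPKM in Con, 3958, 4038 and 3999 in TNF and 3880, 3958 and 3860 in TNF_P. Of 11 Schwann cell markers 9 were above 1 FPKM in every library, and none was at 0 in all libraries. In bulk samples fewer cells of a type and less RNA per cell cannot be told apart, and the part of these markers in the histone values was not tested.

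Depth was estimated from the step that 1 fragment makes in the FPKM of genes with 1 transcript. It came to 26055000, 21578000 and 20224500 fragments in Con, 21074500, 22424000 and 18888000 in TNF and 18309500, 19817500 and 16844500 in TNF_P. Every TNF_P library was shallower than every Con library. A limit of 3 fragments was taken for a count of 0 in a single library. On a transcript of 500 bases it corresponds to 0.230 FPKM in Con replicate 1 and 0.356 FPKM in TNF_P replicate 3. Such floors cover counting error only.

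Histone genes were low in this RNA. A mean of at least 1 FPKM over the 9 libraries was reached by 13 of the 70 genes (18.6%), against 50.7% of the 21897 protein-coding genes in the table. The median histone gene had a mean of 0.268 FPKM. Another 43 genes had means from 0.1 to under 1 FPKM and 14 were under 0.1, of which Hist1h1t, Hist1h2aa, Hist2h3b and Hist2h2bb were listed at 0 throughout. The 6 highest genes held 67.2% of the summed mean level, and all 70 together made up 0.0148% to 0.0254% of the summed FPKM of a library. By estimated fragments, 47 genes had at most 10 in each library and 15 at most 3, with a median of 6.27 for the highest library of a gene.

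The genes are short and alike. Single-exon transcripts alone are annotated for 65 of them, and 29 share more than 50% of their stretches of 100 bases with transcripts of other genes, while 6 share none. In 26 the exons overlap those of another gene. How fragments that match several copies were divided by the authors is not given in the sources used here, so the level of a copy with shared sequence is less certain than its spread shows.

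**Figure D1:**
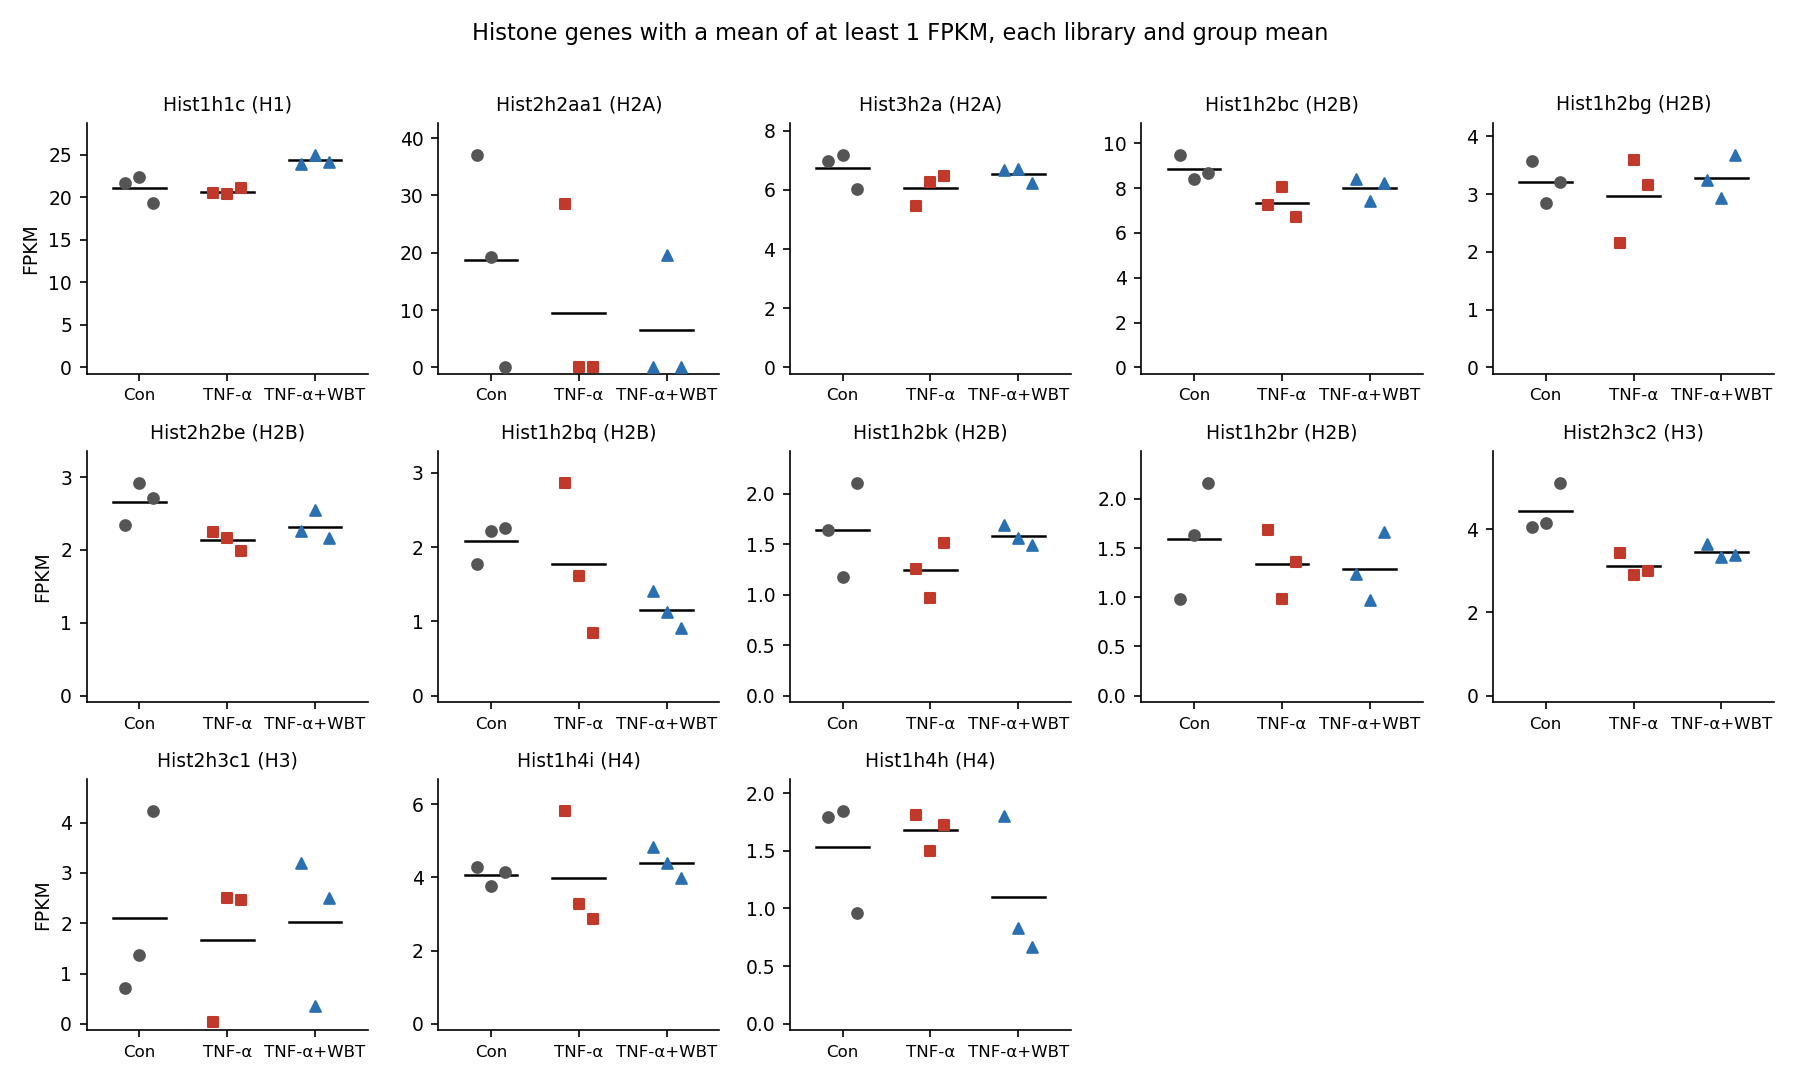
FPKM (y axis) of the 13 histone genes that average 1 FPKM or more, with 1 dot for each of the 3 libraries of Con, TNF (drawn as TNF-α) and TNF_P (drawn as TNF-α+WBT) and a black line at the group mean. Hist1h1c lies between 19.3 and 25.0 FPKM in the 9 libraries, while Hist2h2aa1 is at 0 in 5 of them.

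Among linker histones, Hist1h1c (ENSMUSG00000036181, chr13:23738808-23740367, plus strand), which codes for H1.2, held 97.3% of the H1 level. It was at 21.7, 22.4 and 19.3 FPKM in Con, 20.5, 20.4 and 21.1 in TNF and 23.9, 25.0 and 24.1 in TNF_P, from 607 to 882 estimated fragments a library. The TNF_P libraries were all above the other 6, whereas Con and TNF overlapped. Its mean was 21.1 ± 1.66 FPKM in Con, 20.6 ± 0.371 in TNF and 24.3 ± 0.582 in TNF_P (SD, n = 3). The other H1 genes were far lower: Hist1h1e had a mean of 0.280 FPKM, Hist1h1b 0.198, Hist1h1d 0.0771 and Hist1h1a 0.0473, and the testis gene Hist1h1t was at 0. Per kilobase, the replication-independent linker histone H1f0 was 4.96 times as abundant as Hist1h1c.

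The H2A level rested on Hist3h2a and Hist2h2aa1, which behaved differently across libraries. Hist3h2a (ENSMUSG00000078851, chr11:58954685-58956830, plus strand) was at 6.97, 7.19 and 6.03 FPKM in Con, 5.47, 6.27 and 6.48 in TNF and 6.67, 6.72 and 6.22 in TNF_P. The 3 groups overlapped, and its coefficient of variation over the 9 libraries was 8.05%. Its exons share 708 bases with Trim17 on the same strand. Hist2h2aa1 (ENSMUSG00000064220, chr3:96245497-96246082, plus strand) was at 37.1, 19.3 and 0 FPKM in Con, 28.4, 0 and 0 in TNF and 0, 19.5 and 0 in TNF_P. Each group thus held both a library at 0 and a library above 19 FPKM. All of its stretches of 100 bases also occur in other genes, and the neighbouring genes are described below with it. The other 18 H2A genes had means from 0 to 0.678 FPKM.

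H2B had the most genes above 1 FPKM, 6 of 19. Hist1h2bc (ENSMUSG00000018102, chr13:23684199-23692908, plus strand) was at 9.48, 8.39 and 8.66 FPKM in Con, 7.26, 8.04 and 6.71 in TNF and 8.42, 7.42 and 8.20 in TNF_P. All TNF libraries lay below all Con libraries, and TNF_P overlapped both. Hist1h2bg was at 3.58, 2.84 and 3.21 FPKM in Con, 2.16, 3.60 and 3.16 in TNF and 3.25, 2.93 and 3.68 in TNF_P, with all groups overlapping. Hist2h2be, which shares no stretch of 100 bases with another gene, was at 2.35, 2.92 and 2.71 FPKM in Con, 2.24, 2.17 and 1.98 in TNF and 2.26, 2.54 and 2.16 in TNF_P. As for Hist1h2bc, TNF lay below Con and TNF_P overlapped both.

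Hist1h2bq was at 1.77, 2.21 and 2.26 FPKM in Con, 2.86, 1.61 and 0.840 in TNF and 1.41, 1.13 and 0.915 in TNF_P. Its highest and its lowest library were both in TNF, and TNF_P lay below Con. Hist1h2bk was at 1.64, 1.17 and 2.10 FPKM in Con, 1.25, 0.968 and 1.51 in TNF and 1.69, 1.56 and 1.49 in TNF_P. Hist1h2br was at 0.982, 1.64 and 2.16 FPKM in Con, 1.69, 0.982 and 1.36 in TNF and 1.23, 0.971 and 1.66 in TNF_P. Both overlapped between all groups. Hist1h2bq and Hist1h2br share 94.8% and 86.4% of their stretches of 100 bases with other genes, and Hist1h2bk shares 70.8%.

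For H3, Hist2h3c2 (ENSMUSG00000081058, chr3:96238108-96239127, minus strand) led with 4.06, 4.15 and 5.11 FPKM in Con, 3.42, 2.91 and 3.00 in TNF and 3.64, 3.34 and 3.38 in TNF_P. All Con libraries were above all treated libraries, and TNF and TNF_P overlapped. Its mean was 4.44 ± 0.581 FPKM in Con, 3.11 ± 0.270 in TNF and 3.45 ± 0.165 in TNF_P (SD, n = 3), from 57.8 to 108 fragments a library, and 61.6% of its stretches of 100 bases occur in other genes. Its copy Hist2h3c1 was at 0.715, 1.37 and 4.23 FPKM in Con, 0.0437, 2.51 and 2.45 in TNF and 3.20, 0.358 and 2.51 in TNF_P, a spread as wide within groups as between them. The other 10 H3 genes had means up to 0.455 FPKM.

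Of the 13 H4 genes, Hist1h4i (ENSMUSG00000060639, chr13:22040636-22041362, minus strand) was the highest, at 4.29, 3.77 and 4.16 FPKM in Con, 5.80, 3.26 and 2.86 in TNF and 4.83, 4.38 and 3.97 in TNF_P. TNF held both its highest and its lowest libraries. Hist1h4h was at 1.80, 1.84 and 0.963 FPKM in Con, 1.81, 1.49 and 1.73 in TNF and 1.80, 0.831 and 0.663 in TNF_P, and its groups overlapped. The other 11 ranged in mean from 0.0473 FPKM for Hist4h4 to 0.971 for Hist1h4k.

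Summed by type, without the pseudogenes, the levels differed in how far libraries of a group spread. H1 summed to 22.4, 22.9 and 20.5 FPKM in Con, 20.8, 21.0 and 21.3 in TNF and 24.5, 25.6 and 24.7 in TNF_P. H2B summed to 22.5, 21.7 and 23.9 FPKM in Con, 19.8, 19.2 and 17.5 in TNF and 19.8, 18.4 and 20.3 in TNF_P. TNF_P was above both other groups for H1, and both treated groups were below Con for H2B, also after scaling to the library median and, for H2B, without Hist1h2bc. As log2 ratios of group means, H1 differed by 0.25 between TNF_P and TNF, and H2B by -0.27 between TNF and Con and by -0.22 between TNF_P and Con. With each library left out in turn these ranged from 0.23 to 0.26, from -0.31 to -0.22 and from -0.25 to -0.18.

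H3 summed to 8.06, 7.92 and 11.8 FPKM in Con, 5.65, 8.02 and 7.95 in TNF and 7.69, 6.43 and 8.70 in TNF_P. H4 summed to 9.63, 9.28 and 8.61 FPKM in Con, 12.7, 8.16 and 7.43 in TNF and 11.3, 8.11 and 7.12 in TNF_P. Both overlapped between all groups, as did H2A with and without Hist2h2aa1. Without that gene, H2A summed to 10.6, 12.3 and 11.3 FPKM in Con, 9.70, 11.9 and 10.1 in TNF and 11.1, 10.8 and 10.4 in TNF_P. The 3 pseudogenes summed to a mean of 0.666 FPKM.

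The sum of all 70 genes was 110.8, 93.9 and 77.0 FPKM in Con, 97.9, 69.2 and 64.6 in TNF and 75.0, 89.8 and 71.7 in TNF_P, with overlap between all groups. Without Hist2h2aa1, a set chosen after its values were seen, the other 69 genes summed to 73.7, 74.6 and 77.0 FPKM in Con, 69.5, 69.2 and 64.6 in TNF and 75.0, 70.3 and 71.7 in TNF_P. Every TNF library was then below every library of both other groups. Hist2h3c1, which divides the libraries in the same way as Hist2h2aa1, is still in that sum. Without both, the other 68 genes summed to 73.0, 73.2 and 72.8 FPKM in Con, 69.5, 66.7 and 62.1 in TNF and 71.8, 69.9 and 69.2 in TNF_P, so that TNF and TNF_P overlapped and both lay below Con. The log2 ratio of TNF to Con was -0.28 with all genes, -0.15 without Hist2h2aa1 and -0.14 without both genes, that of TNF_P to TNF was 0.03, 0.09 and 0.09, and that of TNF_P to Con was -0.25, -0.05 and -0.05. With all genes, leaving out a library moved the TNF to Con ratio between -0.49 without TNF replicate 1 and -0.15 without Con replicate 1. The TNF_P to TNF ratio turned negative, down to -0.08, without TNF replicate 2, TNF replicate 3 or TNF_P replicate 2. Without Hist2h2aa1 and with a library left out, that ratio ranged from 0.06 to 0.11, and that of TNF_P to Con from -0.08 to -0.03. Without both genes these ranges were 0.05 to 0.13 and -0.07 to -0.04.

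**Figure D2:**
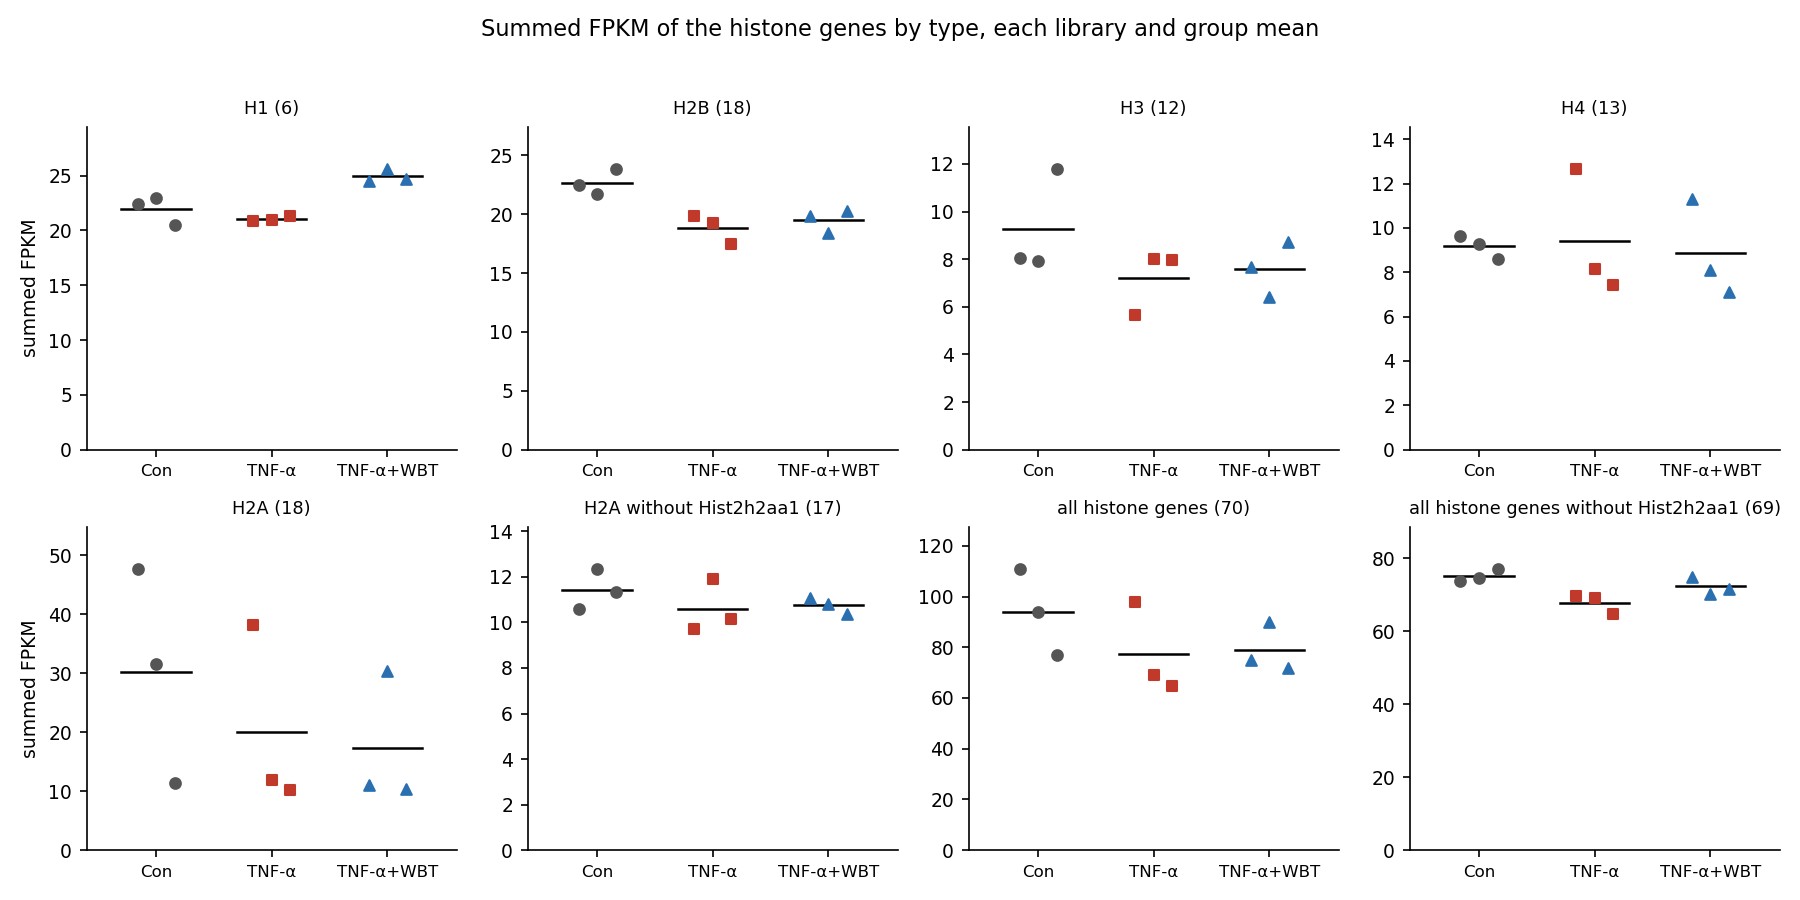
Summed FPKM (y axis) of the histone genes by type, of H2A without Hist2h2aa1, and of all genes with and without Hist2h2aa1, with the number of genes in brackets, 1 dot for each library and a black line at the mean of the 3 libraries of a group. The H2B sums of TNF and TNF_P lie below those of Con, and without Hist2h2aa1 the sums of all other genes lie between 64.6 and 69.5 FPKM in TNF.

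Comparison of TNF with Con asks what the cytokine alone did. In TNF, 2 histone genes were called lower at an adjusted p under 0.05 in limma, and none was called higher. They were the H2B gene Hist1h2bm, read with the limit given below, and the H3 gene Hist2h3c2. That is 2 of the 65 genes that passed the filter on low values (3.08%), against 4.86% of all 25417 genes tested, or 1.93% called lower and 2.94% higher. Of the 65, 6 had an unadjusted p under 0.05 (9.23%), against 16.1% of all genes. Limma-voom on estimated fragments called 1.

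Hist2h3c2 fell by 0.50 on the log2 scale (SE 0.11, 95% interval -0.76 to -0.24, adjusted p = 0.0446 in limma), lower in 3 of 3 libraries. This call was lost when any of the 9 libraries was left out, with adjusted p from 0.0560 to 0.140, and 5 of 19 alternative settings kept it. Hist1h2bm was at 0.432, 0.222 and 0.189 FPKM in Con, listed at 0 in all TNF libraries and at 0, 0.0744 and 0.113 in TNF_P. Its Con values stand on 5.90, 2.51 and 2.00 estimated fragments, and against a group listed at 0 no fold change is given. The adjusted p was 0.0125 in limma and between 0.00733 and 0.0518 over the alternatives, of which 17 of 18 kept the call. However, the gene passed the filter only with its Con libraries. Its 2.51 and 2.00 fragments in Con replicates 2 and 3 lie within the 3 taken as the limit for a count of 0, and the 5.90 in replicate 1 lie above it. That limit is set for single libraries, not for a group. No fall of Hist1h2bm is therefore read from this call or from its stability.

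The study sets a fold change over 2 and a p under 0.05. Here this rule was applied to the fold change on log2(FPKM + 0.1) and the unadjusted p, both from limma. Hist1h2bm and the H4 gene Hist1h4j passed it, both lower, against 2.42% of all genes, or 1.05% lower. Hist1h4j was at 0.496, 0.359 and 0.398 FPKM in Con, 0.245, 0.173 and 0.0769 in TNF and 0.0706, 0.179 and 0.383 in TNF_P, from 10.0 fragments down to 1.12 in the first 2 groups. All TNF libraries were below all Con libraries (log2 fold change -1.01, SE 0.40, adjusted p = 0.261 in limma). The number of genes past that rule was 1 without TNF replicate 3 and 3 without Con replicate 1 or TNF_P replicate 3. Hist1h2bm was among them whichever library was left out. Hist1h4j was lost without Con replicate 1, 2 or 3 and without TNF replicate 2 or 3. In some of these cases Hist1h1b, Hist1h2ak or Hist1h4a passed.

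The libraries of TNF and Con did not overlap for 9 histone genes (13.8%), against 21.2% of all genes. In TNF 8 were lower (10.2% of all genes) and 1 was higher (11.1% of all genes). The lower ones were Hist1h1b, Hist1h2bc, Hist1h2bl, Hist1h2bm, Hist1h3h, Hist1h4j, Hist2h2be and Hist2h3c2, and the higher one was Hist1h3a. Each has an exact two-sided permutation p of 0.1, the smallest that 3 libraries against 3 can give. For Hist1h2bc the log2 fold change was -0.27 (SE 0.09, adjusted p = 0.150 in limma) and for Hist2h2be -0.30 (SE 0.12, adjusted p = 0.268 in limma), which did not pass. Of the 65 genes, 41 had an estimate below 0 (63.1%), against 49.3% of all genes, and their median log2 fold change was -0.13, against 0.00 over all genes. The 13 genes that average 1 FPKM or more had a median of -0.27, against 0.00 for the 12684 genes at that level. Among the 13 are Hist2h2aa1 and Hist2h3c1, whose levels varied widely within groups, and a median without them is not given here.

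Comparison of TNF_P with TNF asks what WBT did beside TNF-α. Neither direction had a histone gene past an adjusted p of 0.05 in limma, 0 of 65, against 0.00393% of all genes, which is 1 gene. At an unadjusted p under 0.05 there were 4 (6.15%), against 6.31% of all genes, and limma-voom called 0. The number of genes called among all tested was between 0 and 11 with a library left out, 0 without Con replicate 2 or TNF_P replicate 1 and 11 without TNF_P replicate 2.

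Hist1h1c had the lowest adjusted p among the histone genes that average 1 FPKM or more here. Its log2 fold change was 0.24 (SE 0.06, adjusted p = 0.517 in limma), higher in 3 of 3 libraries. Groups did not overlap for 5 histone genes (7.69%), against 11% of all genes. Those higher in TNF_P were 4 (Hist1h1c, Hist1h1d, Hist1h1e and Hist1h2bp), against 5.39% of all genes, and 1 was lower (Hist1h2bb), against 5.61%. The median log2 fold change was 0.01, against 0.00 over all genes, with 33 estimates above 0 and 32 below. With limma-voom it was 0.07, against 0.01 over all genes, and 30 of 65 estimates were below 0.

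The same fold rule was passed by Hist1h2bb, Hist1h4a and Hist1h4f, all lower in TNF_P, against 1.12% of all genes, or 0.618% lower. Hist1h2bb was at 0.161, 0.0456 and 0.297 FPKM in Con, 0.276, 0.263 and 0.266 in TNF and 0, 0.0248 and 0.0576 in TNF_P. Hist1h4f was at 0.241, 0 and 0.253 FPKM in Con, 0.364, 0.114 and 0.240 in TNF and 0, 0.129 and 0 in TNF_P. Neither exceeded 3.06 estimated fragments in a library, and no fold change is given. Hist1h4a was at 0.0889, 0.0859 and 0.283 FPKM in Con, 0.471, 0.372 and 0.190 in TNF and 0.203, 0.0468 and 0 in TNF_P, with at most 5.35 fragments in a library (adjusted p = 0.699 in limma). Its TNF and TNF_P libraries overlapped, and on so few fragments no fold change is given. Without TNF replicate 1 or without TNF_P replicate 3, 1 histone gene passed this rule. Hist1h2bb passed whichever library was left out. Hist1h4a was lost without TNF replicate 1 or 2 and without TNF_P replicate 2 or 3. Among fits with a library left out, Hist1h4f passed only without Con replicate 2, TNF replicate 2 or TNF_P replicate 2.

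Comparison of TNF_P with Con joins both agents, and it shares its libraries with the other comparisons. No histone gene passed an adjusted p of 0.05 in limma, 0 of 65, against 3.71% of all genes, with 1.4% lower and 2.31% higher. At an unadjusted p under 0.05 there were 6 (9.23%), against 14.7% of all genes, and limma-voom called 0. The count over all genes was 942, and 588 without Con replicate 3.

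Hist2h3c2 had a log2 fold change of -0.35 here (adjusted p = 0.177 in limma), beside -0.50 for TNF against Con and 0.15 for TNF_P against TNF. Hist1h1c had one of 0.21 (adjusted p = 0.114 in limma), beside -0.03 and 0.24. Hist1h2bq had one of -0.81 (adjusted p = 0.368 in limma), with TNF_P below Con in 3 of 3 libraries.

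Libraries of TNF_P and Con did not overlap for 12 histone genes (18.5%), against 19.5% of all genes. The 4 higher in TNF_P were Hist1h1c, Hist1h2ai, Hist1h4c and Hist4h4 (10.2% of all genes), and 8 were lower (9.25% of all genes). The median log2 fold change was -0.13, against 0.00 over all genes, and 43 of 65 estimates were below 0 (66.2%), against 50.1% of all genes. With limma-voom the median was -0.09, against 0.02 over all genes, and 38 of 65 estimates were below 0. The fold rule was passed by Hist1h2bm, which was lower, against 2.29% of all genes, with 1.02% lower and 1.28% higher. Under that rule the count was 0 without TNF_P replicate 1, 2 without Con replicate 1, 3 without TNF_P replicate 2 or TNF_P replicate 3, and 5 without Con replicate 2. Hist1h2bm was lost in the first case and also without Con replicate 1, where Hist1h2ag and Hist1h2bn passed. As in TNF against Con, its few fragments allow no fall to be read.

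The 3′ ends of the annotated transcripts were then read, since the libraries hold RNA with a poly(A) tail. A stem-loop was searched on the transcript strand as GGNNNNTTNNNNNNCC, a stretch of 16 bases whose outer 6 bases on either side pair with each other around a loop of 4. It was found in 46 of 78 annotated transcripts of the histone genes (59.0%) and in 111 of 106374 other transcripts of 300 to 3000 bases (0.104%). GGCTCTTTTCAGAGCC was the most frequent form, in 28 transcripts of H1, H2A, H2B and H3 genes and in none of H4. Transcripts of H4 genes carried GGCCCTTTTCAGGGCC in 7 cases, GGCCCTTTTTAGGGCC in 2 and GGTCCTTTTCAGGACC in 2. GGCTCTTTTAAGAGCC stood in 6 transcripts of H1, H2B and H3 genes and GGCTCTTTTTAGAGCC in 1 of H2A.

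The stretches around the stem-loop are printed for the histone genes with a mean above 1 FPKM that hold a match in their leading transcript, except Hist2h3c1, as they show how alike the motif is where the annotated end differs. Each is read from GENCODE M21 (GRCm38), 5′ to 3′ on the transcript strand, with the stem-loop in capitals.
Hist1h1c: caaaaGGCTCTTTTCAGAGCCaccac
Hist3h2a: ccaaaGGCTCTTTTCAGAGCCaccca
Hist2h2aa1: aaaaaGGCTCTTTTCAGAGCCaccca
Hist1h2bg: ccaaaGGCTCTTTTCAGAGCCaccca
Hist1h2bk: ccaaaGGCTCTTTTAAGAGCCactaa
Hist2h3c2: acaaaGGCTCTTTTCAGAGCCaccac
Hist1h4i: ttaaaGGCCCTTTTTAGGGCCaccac
Hist1h4h: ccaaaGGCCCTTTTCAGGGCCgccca

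After the last base of the stem-loop, the annotated transcript goes on for 840 bases in Hist1h1c (stem-loop at chr13:23739512-23739527), 1643 in Hist3h2a (chr11:58955172-58955187) and 330 in Hist1h4i (chr13:22040966-22040981). These 3 hold AATAAA or ATTAAA, the usual poly(A) signal, in their last 50 bases, as does Hist1h4h, which goes on for 46 bases (chr13:23531458-23531473). Hist2h3c2 goes on for 377 bases (chr3:96238485-96238500), Hist1h2bg for 155 (chr13:23571843-23571858), Hist2h2aa1 for 35 (chr3:96246032-96246047) and Hist1h2bk for 30 (chr13:22036300-22036315), without that signal. Hist2h3c1 goes on for 1167 bases and holds the signal. Hist1h2bc, Hist1h2bq, Hist1h2br and Hist2h2be have no match in their leading transcript, and of these Hist2h2be has the signal. The leading transcripts of Hist1h2bq and Hist1h2br are annotated with only 381 bases each. Longer transcripts of both genes, of 1254 bases for Hist1h2bq and 1256 for Hist1h2br, hold the signal but no stem-loop match.

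By gene, the leading transcript ended within 30 bases after the stem-loop in 9 genes, ran past it in 35 and held no match in 26. The 9 that end at the stem-loop had a median mean level of 0.217 FPKM and summed to 3.28 FPKM, and Hist1h2bk alone of them reached 1 FPKM. The 35 that run past it had a median of 0.285 FPKM and summed to 60.9 FPKM, 8 of them at 1 FPKM or more. Genes without a match had a median of 0.252 FPKM and summed to 19.1 FPKM. Some of these have short annotated transcripts, among them Hist1h4k (312 bases), Hist1h2bl (381 bases) and Hist1h3h (411 bases). Whether such transcripts reach the end of the message was not tested, so no match is not read as a kind of end. The classes also differ in shared sequence. The median share of stretches of 100 bases found in other genes was 70.8% for genes ending at the stem-loop. It was 24.7% for those running past it and 60.9% for those without a match. The part of shared sequence in these levels was not tested. The sums depend on the limit as well. With 100 bases in place of 30, 22 genes end at the stem-loop and sum to 19.1 FPKM, 3 of them at 1 FPKM or more, since Hist2h2aa1, 35 bases past it, and Hist1h4h, 46 bases past it, are then among them, and the 22 that run past it sum to 45.1 FPKM.

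A poly(A) signal in the last 50 bases was held by the leading transcript of 14 genes, with a median of 0.561 FPKM, and 6 of them were at 1 FPKM or more. The 56 genes without it had a median of 0.233 FPKM, and 7 were at 1 FPKM or more. Genes with the signal also shared less sequence, with a median of 13.6% of their stretches of 100 bases, against 49.3% without it. The part of this in the levels was not tested. Over all annotated transcripts, the signal stood in 26.9% of those of histone genes and in 50.3% of other protein-coding transcripts. No match says only that these letters are not in that window of the annotated transcript, and the ends of the RNA itself were not measured.

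Transcripts with the signal held 49.4% of the summed level of the histone genes. Their sum was between 40.7 and 41.4 FPKM in Con, between 38.5 and 39.5 in TNF and between 42.2 and 46.1 in TNF_P. Among them are those of Hist2h3c1, whose level varies widely within groups. Without Hist2h3c1, which was left out after its values were seen, the sum was between 36.5 and 40.2 FPKM in Con, 36.1 and 38.4 in TNF and 39.7 and 42.9 in TNF_P, so that Con overlapped both treated groups and TNF_P lay above TNF. Hist1h1c gives the larger part of it. Transcripts ending at the stem-loop summed to between 2.87 and 4.18 FPKM in Con, 3.01 and 3.59 in TNF and 2.64 and 3.58 in TNF_P, with overlap between all groups. The 36 transcripts that run past it, without Hist2h2aa1, summed to between 49.2 and 50.7 FPKM in Con, 46.2 and 46.8 in TNF and 49.8 and 52.0 in TNF_P. Without Hist2h3c1 as well, the other 34 summed to between 44.94 and 49.97 FPKM in Con, 43.7 and 46.4 in TNF and 48.8 and 49.4 in TNF_P, and TNF overlapped Con but not TNF_P.

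**Figure D3:**
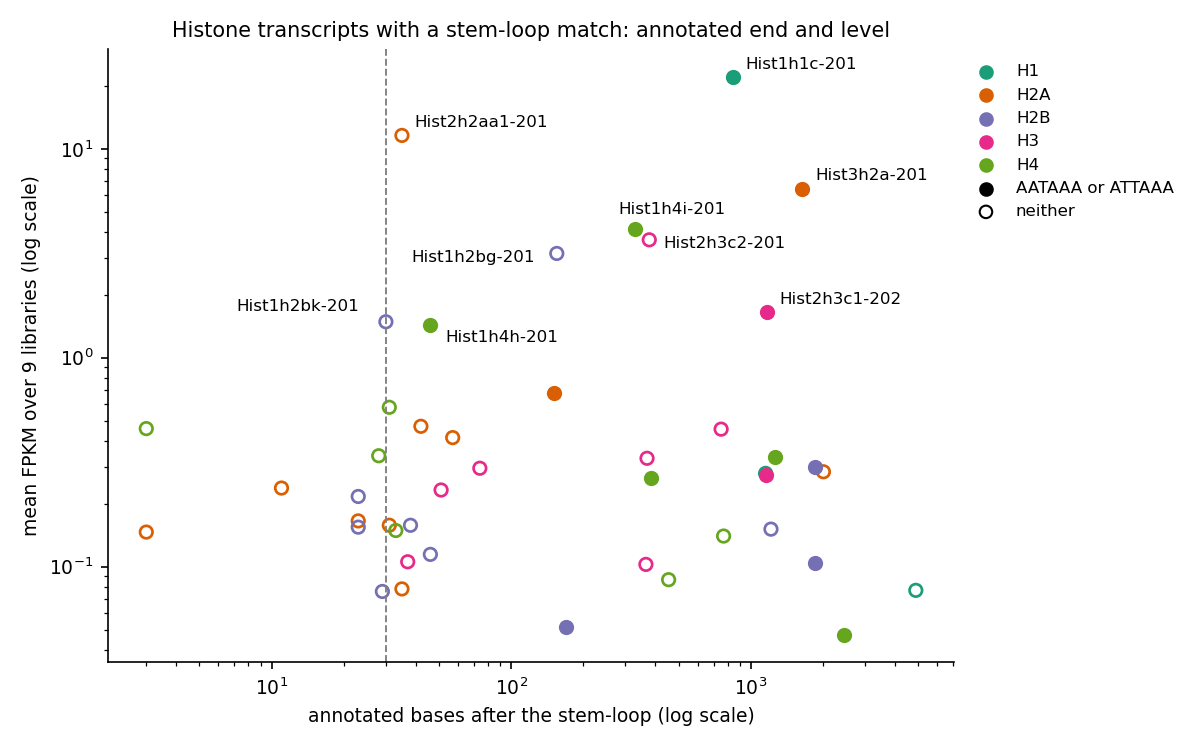
Mean FPKM over the 9 libraries (y axis, log scale) of histone transcripts with a stem-loop match against the bases between the stem-loop and the annotated end (x axis, log scale), coloured by histone type, with filled points for a poly(A) signal in the last 50 bases and a dashed line at 30 bases. The 9 transcripts within 30 bases hold 3.94% of the summed level of all histone transcripts (22.9% with a limit of 100 bases, and 8.97% at that limit from transcripts other than Hist2h2aa1), and Hist1h1c, 840 bases past the stem-loop, is the highest point.

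The wide spread of Hist2h2aa1 and Hist2h3c1 has a pattern within the HIST2 cluster, where H2A and H3 genes are present in copies. Hist2h2aa1 and Hist2h2aa2 (chr3:96239749-96240276, minus strand) share an identical stretch of 528 bases, which is all of Hist2h2aa2. Hist2h2aa2 was at 0, 0.226 and 0 FPKM in Con, 0, 0.478 and 0 in TNF and 0 in all TNF_P libraries. It was thus at most 0.478 FPKM also in the 5 libraries in which Hist2h2aa1 was at 0. On the opposite strand Gm20632 covers all 528 bases of Hist2h2aa2 and was at 10.8 to 13.2 FPKM over the 9 libraries, and Gm20633 covers all 586 bases of Hist2h2aa1 and was at 1.52 to 2.75 FPKM.

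Gm20634 (chr3:96245554-96248509, plus strand) spans both loci, and its exons share 529 bases with Hist2h2aa1 and 1825 with Hist2h3c1. It was at 2.20, 1.69 and 0 FPKM in Con, 3.41, 0 and 0 in TNF and 0, 1.76 and 0 in TNF_P. Gm20634 and Hist2h2aa1 were above 0 in the same 4 libraries, Con replicates 1 and 2, TNF replicate 1 and TNF_P replicate 2. In these 4 libraries Hist2h3c1 was at 0.0437 to 1.37 FPKM, and in the other 5 at 2.45 to 4.23 FPKM.

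The annotated transcripts of Hist2h3c1 divide the libraries in the same way. The shorter, of 1820 bases, was at 0.715, 1.37 and 0 FPKM in Con, 0.0218, 0 and 0 in TNF and 0, 0.358 and 0 in TNF_P. The longer, by 5 bases, was at 0.000125, 0.000689 and 4.23 FPKM in Con, 0.0219, 2.51 and 2.45 in TNF and 3.20, 0.000142 and 2.51 in TNF_P. The libraries in which Hist2h2aa1 was at 0 are those in which the longer transcript was above 2 FPKM. Whether the RNA or its assignment to overlapping genes differs between these libraries was not tested, and the split does not follow the groups.

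**Figure D4:**
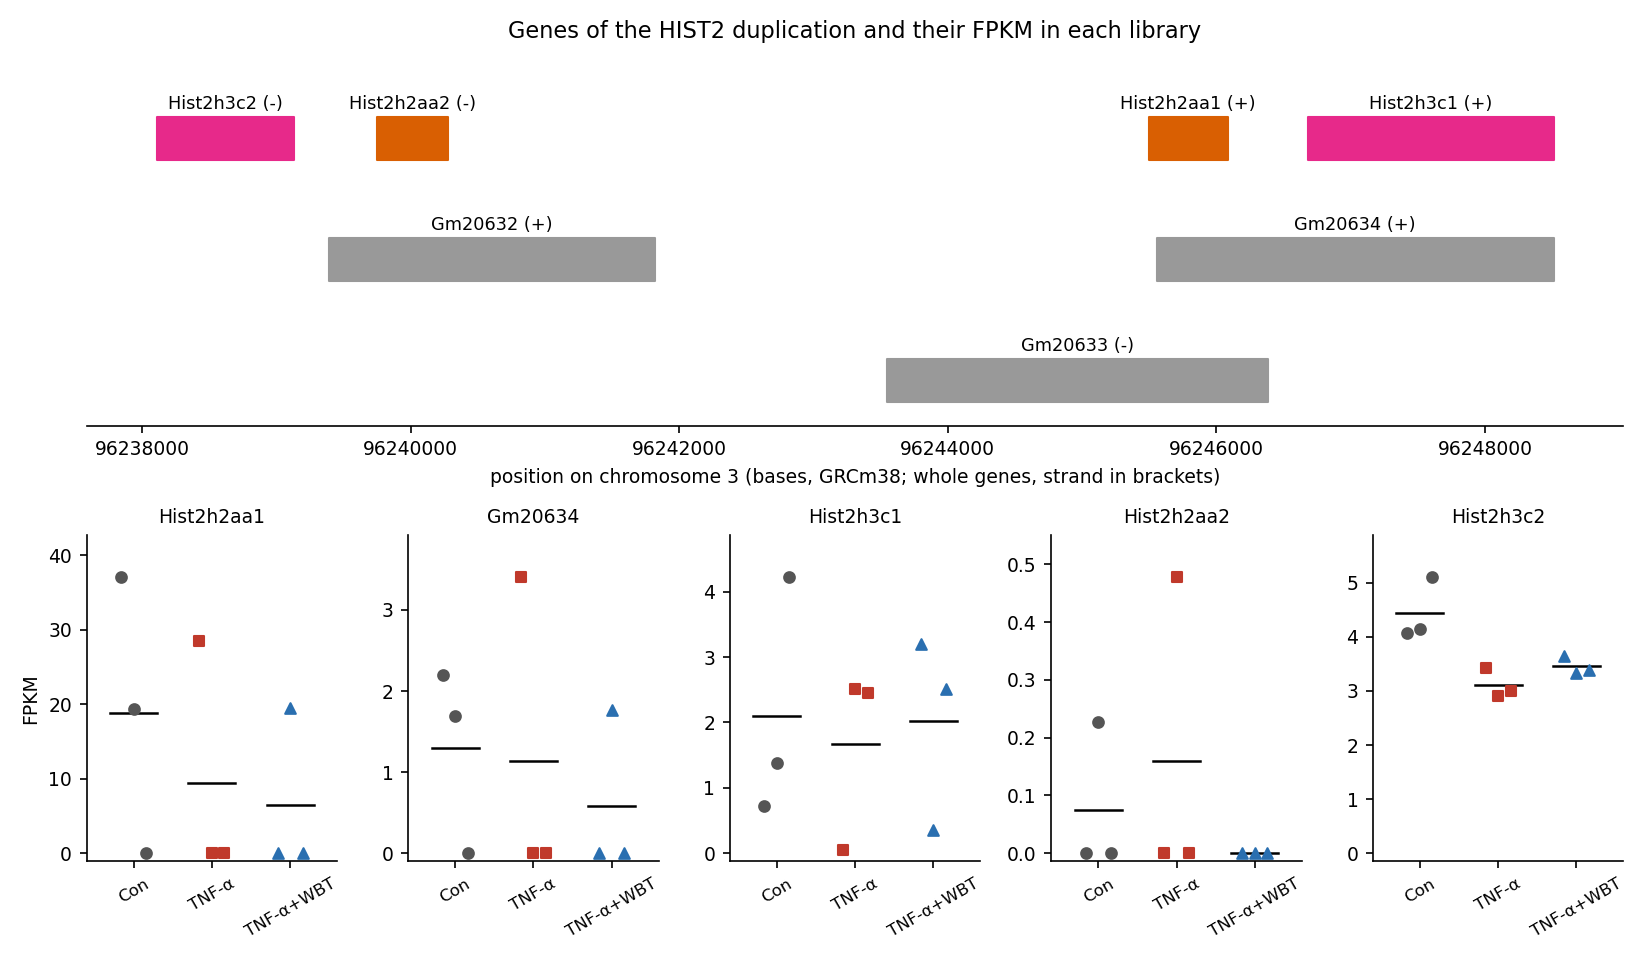
Map of genes in the HIST2 cluster (x axis, position on chromosome 3, GRCm38) above panels of FPKM (y axis) for 5 of them, with 1 dot for each library of Con, TNF and TNF_P and a black line at the group mean. Hist2h2aa1 and Gm20634 are at 0 in the same 5 libraries, in which Hist2h3c1 lies between 2.45 and 4.23 FPKM.

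The genes listed as replication-independent histones were together far higher. All 11 of the list were above 1 FPKM in every library, with summed means of 745.4 FPKM against 83.3 for the 70 replication-dependent genes, and H3f3a (175 FPKM), H3f3b (142 FPKM) and H1f0 (109 FPKM) led. H2afj, an H2A variant gene, was at 27.4, 28.2 and 28.5 FPKM in Con, 33.5, 38.3 and 37.5 in TNF and 36.9, 33.0 and 36.1 in TNF_P. Both treated groups were above Con. It rose in TNF against Con (log2 fold change 0.38, SE 0.06, adjusted p = 0.00956 in limma) and in TNF_P against Con (0.33, SE 0.06, adjusted p = 0.0216 in limma), and no other gene of the 11 was called in these comparisons, against 4.86% and 3.71% of all genes. The second call was lost without Con replicate 1, 2 or 3 or TNF_P replicate 1 or 3, and also without the intensity trend and with replicate number as a block (adjusted p = 0.0613 in limma). The adjusted p ranged from 0.0126 to 0.0895 over 19 alternatives, of which 12 kept the call. In TNF_P against TNF limma called 0 of 11, with 1 at an unadjusted p under 0.05, against 6.31% of all genes.

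Of 21 genes of DNA replication and S phase, all were above 1 FPKM in every library, led by Mcm7 (53.9 FPKM) and Mcm6 (27.6 FPKM), which code for parts of the replicative helicase, and Pcna (40.9 FPKM), which codes for the sliding clamp. Cdt1, which codes for a factor that loads the helicase at origins, was at 12.1, 11.5 and 12.5 FPKM in Con, 9.10, 8.67 and 8.62 in TNF and 8.28, 8.92 and 8.86 in TNF_P. Both treated groups were below Con. It fell in TNF against Con by 0.45 on the log2 scale (SE 0.06, adjusted p = 0.00239 in limma) and in TNF_P against Con by 0.46 (SE 0.06, adjusted p = 0.00251 in limma), the only call of the list in each. The sum of the 21 was 320, 301 and 313 FPKM in Con, 336, 319 and 333 in TNF and 309, 287 and 307 in TNF_P, with TNF above TNF_P in every library. Against TNF, 7 of 21 had an unadjusted p under 0.05 in TNF_P, against 6.31% of all genes, and limma called 0 at an adjusted p, with a median log2 fold change of -0.15. In TNF against Con 4 of 21 had an unadjusted p under 0.05, against 16.1% of all genes, and in TNF_P against Con 2 of 21, against 14.7%.

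Genes for the 3′ end processing of histone messages were present. Of 18, 17 were above 1 FPKM in every library, led by Srrt (68.8 FPKM), Ncbp1 (37.7 FPKM), which codes for a cap-binding protein, and Sympk (35.2 FPKM), a scaffold of the cleavage complex, while Zfp473 had a mean of 0.131 FPKM. Slbp, which codes for the stem-loop binding protein, had a mean of 15.4 FPKM. Limma called 0 of 18 in each comparison, with 1, 0 and 1 at an unadjusted p under 0.05 for TNF against Con, TNF_P against TNF and TNF_P against Con, against 16.1%, 6.31% and 14.7% of all genes. Without Con replicate 3, Srrt had an adjusted p of 0.0472 in TNF against Con, the lowest of its 19 alternatives, which reach 0.966.

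All 14 histone chaperone genes and all 13 genes of the general poly(A) machinery were above 1 FPKM in every library. Nap1l1 (238 FPKM), Ssrp1 (78.1 FPKM) and Atrx (65.8 FPKM) led the first list, and Pabpn1 (48.4 FPKM), Papola (47.0 FPKM) and Cpsf6 (38.2 FPKM) the second. Limma called 0 of either list in any of the 3 comparisons. Nap1l1 had a log2 fold change of -0.08 in TNF against Con (adjusted p = 0.310 in limma), and from -0.11 to -0.06 with a library left out. It was called lower there with quantile normalization (log2 fold change -0.15, adjusted p = 0.0410 in limma) and with limma-voom (-0.10, adjusted p = 0.0351). These are 2 of 19 alternatives, whose adjusted p reach 0.599. At an unadjusted p under 0.05 the chaperones numbered 2, 1 and 1 and the poly(A) genes 1, 1 and 1, in the order TNF against Con, TNF_P against TNF and TNF_P against Con, against 16.1%, 6.31% and 14.7% of all genes.

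Among the cell type markers, limma called 2 of 11 fibroblast markers higher (Col1a1 and Col1a2) and 1 lower (Pdgfrb) in TNF against Con, and 5 of 11 Schwann cell markers lower (Cdh19, Erbb3, Foxd3, Ngfr and S100b), against 1.93% of all genes called lower and 2.94% higher. In TNF_P against Con it called Pdgfrb and 4 Schwann cell markers lower, against 1.4% of all genes. It called 0 of 7 macrophage markers in each comparison. At an unadjusted p under 0.05 there were 1, 0 and 1 in the same order, against 16.1%, 6.31% and 14.7% of all genes. In TNF_P against TNF it called 0 markers, with 3 Schwann cell and 0 fibroblast markers at an unadjusted p under 0.05, against 6.31% of all genes. The H2B sum was also lower in the treated groups than in Con, and whether it is related to these Schwann cell markers was not tested.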

How the data were processed

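Gene and transcript FPKM were deposited by the authors, who aligned paired-end reads of poly(A)-selected RNA with HISAT2 and estimated levels with StringTie and Ballgown. Versions, genome build and annotation are not given in the sources used here. Ensembl identifiers were matched to GENCODE M21 (GRCm38), which gave an entry for 98.0% of genes. Members and gene lists were chosen with earlier results of these data known.

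A filter kept 25417 genes, those above 0 FPKM in 3 or more libraries, and limma was run on log2(FPKM + 0.1) with 1 model over the 9 libraries, an intensity trend and Benjamini-Hochberg adjustment over all of them. Fragments per library were estimated from 10661 genes with 1 transcript of more than 1000 bases. From 51.7% to 55.5% of low values lay within 0.1 of a whole fragment, against 20.0% by chance. Shared sequence was counted as stretches of 100 bases.

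Named were the histone genes that average 1 FPKM or more or are past a call rule, the 3 highest genes of each gene list other than the markers, and up to 3 genes a list and comparison past an adjusted p of 0.05. Others were named after their values were seen. Alternatives covered the pseudocount, filter, trend, groups in the fit, scaling, replicate block, limma-voom and each library left out. Tools were R 4.3.3 with limma 3.58.1, and Python 3.11.15 with matplotlib 3.10.9, scipy 1.17.1, numpy 2.4.6 and pandas 2.3.3.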

Additional observations from a re-analysis of the deposited data

How the results depend on the processing

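In TNF against Con, the histone genes past an adjusted p of 0.05 numbered 2, and 1 with a pseudocount of 1, with genes of a mean of at least 1 FPKM, without the trend, with only the 2 groups fitted, with limma-voom, and with any library left out (1 to 1). Hist2h3c2 was lost under each of these except the filter, and Hist1h2bm did not pass the filter. By the fold rule they numbered 2, and 1 with a pseudocount of 0.01, 0 with a pseudocount of 1, 0 with the filter at 1 FPKM, and 1 to 3 with a library left out. The genes past the fold rule were 615, and 1057, 128, 207 and 1137 with a pseudocount of 0.01, a pseudocount of 1, the filter at 1 FPKM and limma-voom. With a library left out, 828 to 1100 genes passed the adjusted p and 609 to 706 the fold rule.

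In TNF_P against TNF, 1 gene passed the adjusted p, and 11 with a pseudocount of 0.01, 7 without the trend, 2 with only the 2 groups, 5 with limma-voom and 0 to 11 with a library left out. No histone gene passed it under any of the 19 alternatives, all run with limma. The fold rule took 284 genes, and 639, 8, 14 and 568 under the same 4 settings as above, with 292 to 393 when a library was left out. It took 3 histone genes, 0 with a pseudocount of 1, 0 with the filter at 1 FPKM, and 1 to 3 with a library left out.

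In TNF_P against Con, 942 genes passed the adjusted p, with 588 to 817 when a library was left out, and again no histone gene passed under any of the 19 alternatives. The fold rule took 583 genes, and 1040, 105, 167 and 1007 under the same 4 settings, with 578 to 665 when a library was left out. It took 1 histone gene, 3 with a pseudocount of 0.01, 0 with a pseudocount of 1, 0 with the filter at 1 FPKM, and 0 to 5 with a library left out. The filter and the left-out libraries leave fewer genes or libraries to test; for the other settings the cause was not tested.

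Replicate numbers do not appear to pair the libraries: deviations from the group mean correlated between -0.030 and 0.032 for libraries of the same number and between -0.029 and 0.031 for the others. With replicate number as a block, 0 histone genes passed the adjusted p and 1 the fold rule in TNF against Con (Hist2h3c2 0.0939, Hist1h2bm 0.0518), and 0 genes passed the adjusted p in TNF_P against TNF.

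The log2 ratios of the summed histone level were -0.28 for TNF to Con, 0.03 for TNF_P to TNF and -0.25 for TNF_P to Con. Without Hist2h2aa1 they were -0.15, 0.09 and -0.05, and without Hist2h3c1 as well -0.14, 0.09 and -0.05, both chosen after seeing the data. Hist2h2aa1 also makes most of the spread between replicates, with an SD of 16.9, 18.1 and 9.65 FPKM in Con, TNF and TNF_P with it and 1.71, 2.76 and 2.41 without it, so that spread is no measure of how much its removal matters. With all genes and a library left out the ratios were -0.49 to -0.15 for TNF to Con, -0.08 to 0.24 for TNF_P to TNF and -0.38 to -0.12 for TNF_P to Con. Genes running past the stem-loop numbered 35 with a limit of 30 bases and 22 with 100, since the longer limit counts more ends as lying at it, and the share of the summed level held by transcripts ending there went from 3.94% to 22.9%. Of 1980 values of named genes under alternatives, 22 lost a call, 3 gained one and 0 reversed a call, while 75 values without a lost or gained call changed sign, 12 of them beyond 1 standard error.

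At this depth most histone genes rest on few fragments, 47 of 70 on at most 10 in each library, and how large a difference the fit can detect at such counts was not measured. FPKM are relative to the library, and the fragments of copies that share sequence were divided by the authors' tools. Annotated 3′ ends come from GENCODE M21, not from the reads.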
